A study of Mus musculus with 77 samples.

Results

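Protein tyrosine phosphatases and dual-specificity phosphatases are described here across 4 stages of granulocyte formation in mouse bone marrow and in progenitors without CEBPA. The genes are those of a deposited enhancer table whose symbols begin with Ptpn and a digit, Ptpr and a letter, or Dusp and a digit. They number 42 of the 10096 genes of the table and hold 305 of its 44002 enhancers. There were 15 Dusp symbols with 97 enhancers, 13 Ptpn symbols with 66 and 14 Ptpr symbols with 142. The symbols go against the label in at least 1 case, since Ptprcap encodes a small membrane protein that binds CD45 and has no phosphatase domain. It was kept because the rule takes it, and is named apart.

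The study followed enhancers and 2 transcription factors through the granulocyte-monocyte lineage of freshly sorted bone marrow. LSK cells were lineage-negative and Sca-1+ with Kit, and contain stem cells and multipotent progenitors. The preGM were Lin-, Sca-1-, ckit+, CD150- and CD105-, and are early granulocyte-monocyte progenitors. GMP were Lin-, Sca-1-, ckit+, CD150- and FcgRII/III+, the next progenitor stage, and granulocytes were Mac1+Gr-1+ mature cells. These 4 groups were wild type. Another group was preGM of genotype CEBPA KO, and its deletion driver and the ages of the mice are not given in the labels. Each enhancer had 1 ChIP-seq signal value in each of the 5 groups for H3K27ac, which marks active enhancers, and for H3K4me1, which marks active and poised ones. Binding of PU.1, a myeloid transcription factor, was measured in the 3 progenitor groups and in KO preGM. CEBPA binding was used from wild type preGM.

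Each signal value is matched by its name to 2 listed libraries, 30 in all, which the table does not separate. There are therefore no replicates, no error and no test below, and depth is unknown. A difference is described by its size alone, and whether it exceeds the spread between animals or libraries cannot be told. The table also gives 1 expression value per gene for the 4 stages and, in a second set, for wild type and KO preGM. Its unit and origin are not given in the sources used here. Across all genes the preGM column of the stages had a Spearman correlation of 0.972 with LSK but 0.791 with the wild type preGM column of the second set, so ratios were taken only within a set and no level is compared between genes. The lowest of these expression values was 2.04 and none was 0. Cebpa, the deleted gene, was 48.3 in KO and 208 in wild type preGM. In bulk samples fewer cells of a type and less RNA per cell cannot be told apart.

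Markers of stem cells and progenitors and of granulocytes followed the sort. The summed expression of 9 stem and progenitor markers was 14941, 12002, 4425 and 1307 in LSK, preGM, GMP and granulocytes. The 14 granulocyte markers summed to 4734, 22320, 43036 and 63212. The 8 monocyte markers, which belong to the other branch of the lineage, summed to 3353, 12037, 16609 and 2715. The 2 B cell markers found summed to at most 49.6 in the stages. The 3 T and NK cell markers summed to 1820 in GMP and to between 260 and 580 in the other stages. Their median was 25.5 in GMP and between 24.4 and 28.2 elsewhere, so 1 gene held most of each sum. The 5 megakaryocyte markers summed to 372, 627, 234 and 380 along the stages. The 1 erythroid marker found had 40.1, 189, 64.1 and 167. No marker was at 0, and the part of such mixtures in the values below was not tested.

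Tyrosine phosphatases remove phosphate from the tyrosines that receptor and cytoplasmic kinases have marked. Receptor-type Ptpr proteins cross the membrane, and Ptpn proteins lie in the cytosol or on internal membranes. In blood cells CD45 and CD148 release Src family kinases from inhibition, SHP-1 carries the inhibitory signal of receptors with tyrosine motifs, and SHP-2 passes growth factor signals on to Ras and ERK. Dual-specificity phosphatases also act on threonine. The best known are the MAP kinase phosphatases, which switch off ERK, p38 and JNK and many of which are themselves induced by the pathway they switch off.

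The starts of 4 MAP kinase phosphatase genes are shown because these are the members whose expression differed most between LSK and preGM. Each run is the 250 bases before the start in RefSeq, build GRCm38.p6, on the coding strand. Capitals mark matches, on either strand, to the cAMP response element TGACGTCA, its core TGACG and the CArG box, the site of serum response factor. Dusp1 lies at chr17:26508473-26508722 on the minus strand, and the others on the plus strand at chr2:127335909-127336158 (Dusp2), chr19:53528895-53529144 (Dusp5) and chr10:99262981-99263230 (Dusp6).
Dusp1: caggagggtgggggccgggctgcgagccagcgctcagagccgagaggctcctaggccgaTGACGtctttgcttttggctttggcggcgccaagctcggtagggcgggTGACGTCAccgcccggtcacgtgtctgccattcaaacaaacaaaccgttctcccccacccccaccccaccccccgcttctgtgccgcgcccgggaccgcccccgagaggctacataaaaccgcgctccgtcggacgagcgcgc
Dusp2: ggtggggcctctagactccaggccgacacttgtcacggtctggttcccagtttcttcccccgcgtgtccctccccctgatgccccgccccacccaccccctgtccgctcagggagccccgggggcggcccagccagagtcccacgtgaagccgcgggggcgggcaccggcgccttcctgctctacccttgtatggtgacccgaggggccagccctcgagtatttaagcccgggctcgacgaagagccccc
Dusp5: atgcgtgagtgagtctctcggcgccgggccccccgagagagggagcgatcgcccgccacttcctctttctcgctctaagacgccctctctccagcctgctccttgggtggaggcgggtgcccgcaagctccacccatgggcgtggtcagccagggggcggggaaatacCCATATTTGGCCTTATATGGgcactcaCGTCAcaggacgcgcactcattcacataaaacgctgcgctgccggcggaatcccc
Dusp6: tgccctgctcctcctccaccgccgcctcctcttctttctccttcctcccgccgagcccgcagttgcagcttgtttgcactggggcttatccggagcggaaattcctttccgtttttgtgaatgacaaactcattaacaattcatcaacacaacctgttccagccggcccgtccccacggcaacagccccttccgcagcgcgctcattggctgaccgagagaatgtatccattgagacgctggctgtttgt

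Dusp1 held the whole element 143 bases before the start and an additional core at 191. Dusp5 held 2 CArG boxes, at 82 and 72 bases, and a core at 55. Dusp2 and Dusp6 held none of these letters in this window, from which nothing follows about the factors. Of the 42 genes 36 had an entry in the promoter table. TGACGTCA stood in 3 of the 36 (Dusp1, Ptpn11 and Ptpru), which is 8.33%, against 1.62% of all 27025 promoters of the same length. TGACG, which the whole element contains, stood in 13 of 36 (36.1%) against 17.9% of all. The CArG box stood in 1 of 36 against 1.40%. TTNNGCAA, a C/EBP motif, stood in 3 of 36 against 9.55%, and GGAAGT, an ETS motif of the kind PU.1 binds, in 9 of 36 against 5401 of the 27025. TGANTCA, the AP-1 motif, stood in 1 of 36 against 6.87%.

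The enhancers were spread unevenly over the genes. A member had a median of 3 enhancers, against 2 over all genes, and 16 members (38.1%) had 7 or more, against 18.7%. Ptpre, the gene of a receptor-type phosphatase that is strongly expressed in blood cells, had 53 enhancers within 70.0 kb of chromosome 7 (chr7:142731152-142801172, build mm9), and only 5 genes of the table had more. Dusp6 had 27 over 271 kb, Ptprj 27 over 95.8 kb, Ptpn1 21 and Dusp1 20. These 5 genes held 148 of the 305 enhancers (48.5%), while 12 members had 1 enhancer each. Enhancers of 1 gene share their neighbourhood and are not independent, and the genes are those the authors assigned.

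In the authors' classes of bound factors 199 of the 305 enhancers (65.2%) had neither factor, against 59.5% of all enhancers. PU.1 alone was given for 52 (17.0% against 19.1%), CEBPA alone for 30 (9.84% against 12.3%) and both for 24 (7.87% against 9.21%). Ptpre weighed on this: 40 of its 53 enhancers had neither factor and 8 had both, and without it 63.1% of the rest had neither. At Dusp6 14 of 27 were bound, 7 of them by both factors. In the authors' classes of stages 60 enhancers (19.7% against 15.3% of all) were given for LSK and later stages, and 46 (15.1% against 21.2% of all) in granulocytes only. Ptprc, which encodes CD45, had 11 of its 14 enhancers in the granulocyte-only class. Ptprs had the opposite make-up, with 11 of 17 given for LSK, preGM and GMP but not for granulocytes. Whether the classes of stages were made from these same signals is not given, so the marks below may not be separate from them.

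Log2 ratios below carry a pseudocount, are of the gene's mean over its enhancers or of its expression, and have the median of all genes subtracted. That median was 0.42 for H3K27ac in GMP against preGM and at most 0.10 in its other comparisons. For H3K4me1 it was -0.10, 0.19 and 0.34 along the stages and 0.13 in the KO. For PU.1 it was 0.37 and -0.10 along the stages and -0.40 in the KO, and for expression it lay between -0.07 and 0.03. For single enhancers the median of all enhancers was subtracted instead. A gene or enhancer was counted as different when its ratio, with the pseudocount and before the subtraction, was at least 2-fold. A ratio of low deposited values can pass 2-fold without being counted. Counts over all members after the subtraction are given where they differ.

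**Figure D1:**
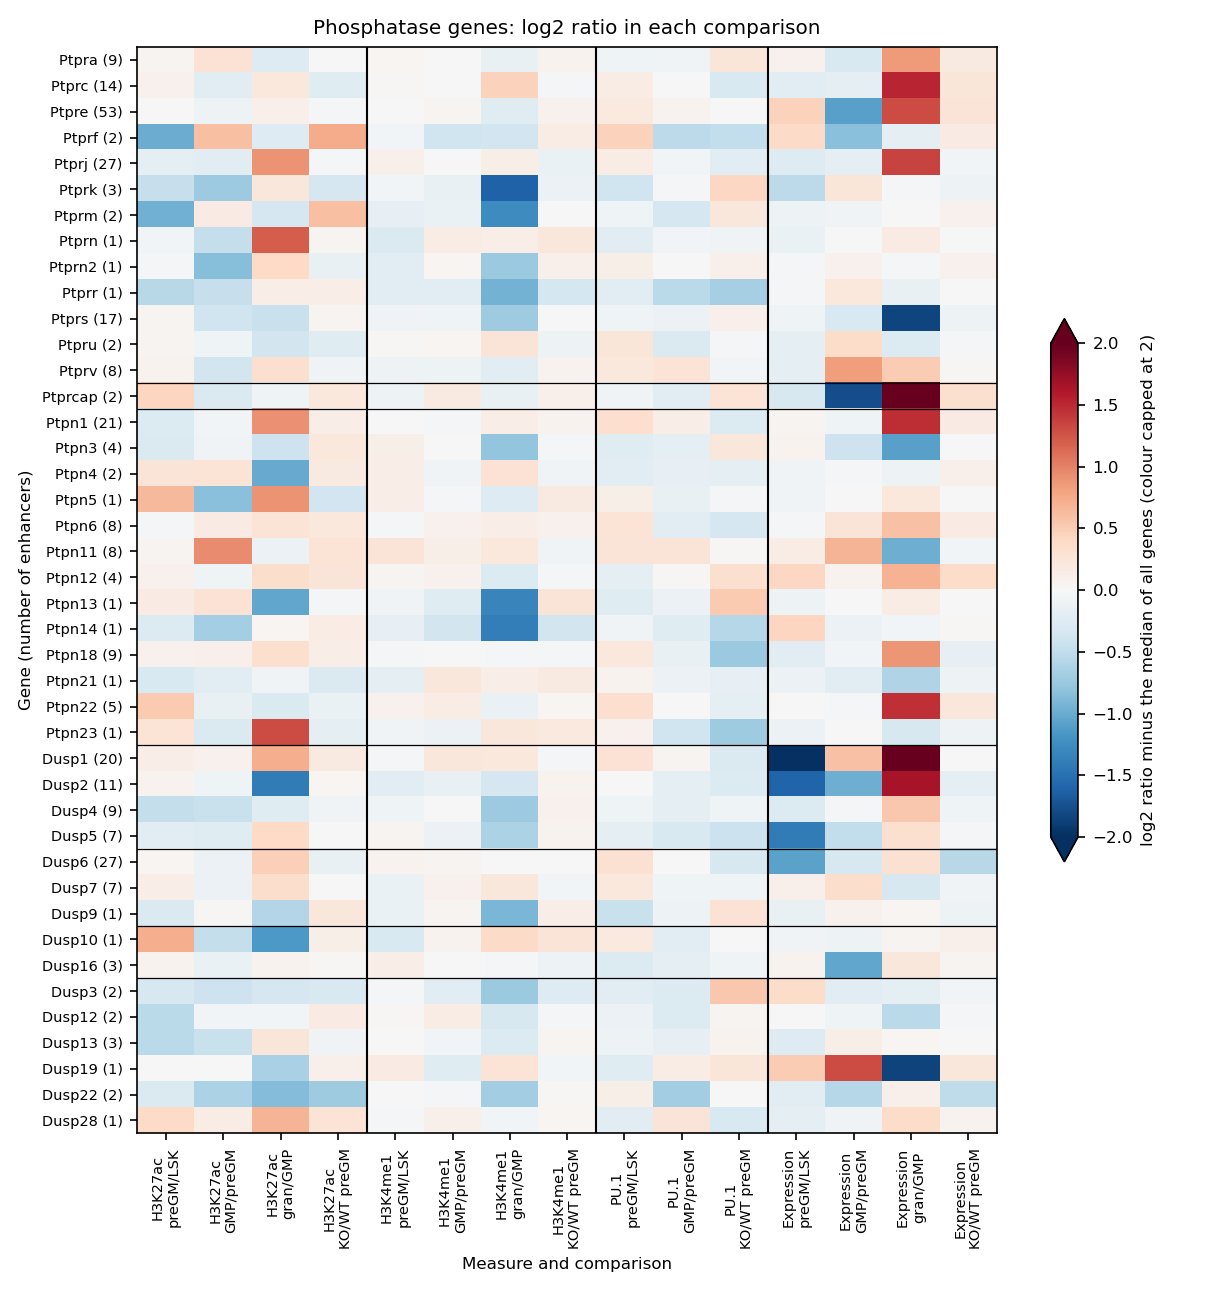
Log2 ratio of each of the 42 genes (rows, by family, with the number of enhancers in brackets) in each measure and comparison (columns), with the median of all genes subtracted; red is higher in the group named first, blue lower, and the colour is capped at 2. The strongest colours lie in the expression columns, with Dusp1 at -4.16 in preGM against LSK and at 3.89 in granulocytes against GMP.

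Expression of 4 MAP kinase phosphatases was at least 2-fold lower in preGM than in LSK, and no member was at least 2-fold higher. These were Dusp1, Dusp2, Dusp5 and Dusp6, 4 of 42 genes (9.52%). Over all genes 0.802% were at least 2-fold lower and 1.61% at least 2-fold higher. The other 38 members lay between these bounds, and the median of the 42 was -0.09.

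Dusp1 encodes MKP-1, a nuclear phosphatase of p38, JNK and ERK. Its expression was 2459 in LSK, 102 in preGM, 175 in GMP and 2982 in granulocytes. The ends of the path were high and the progenitors between them low, with log2 ratios of -4.16, 0.58 and 3.89 in the 3 steps. Dusp2, another nuclear phosphatase, had 514, 146, 56.0 and 248. It was lowest in GMP, and its log2 ratios were -1.60, -0.97 and 1.65.

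Dusp5, a nuclear phosphatase of ERK, had 345, 110, 68.0 and 87.7, and its log2 ratio in preGM against LSK was -1.39. Dusp6, a cytoplasmic phosphatase of ERK, had 353, 150, 114 and 142, with a log2 ratio of -1.08. Both were highest in LSK and stayed below the LSK value in granulocytes, unlike Dusp1. Dusp4, the fourth nuclear member, had 19.9, 10.2, 10.0 and 29.2, all below the pseudocount of 40. Dusp7, the second cytoplasmic phosphatase of ERK, had 98.6, 112, 155 and 109, with its highest value in GMP.

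Immediate early genes are a class of genes induced within minutes by stimuli, cell handling among them. A list of them was looked at in the same step. This list of 19 measured genes was chosen after values of these data, its own among them, were seen, so its counts are a description of genes picked with the pattern known. Of these, 15 were at least 2-fold lower in preGM than in LSK and none higher, with a median of -2.09. Over all genes 0.802% were lower and 1.61% higher, but a list picked by its values cannot be weighed against those shares. Fos had 9706 in LSK, 110 in preGM, 2291 in GMP and 1934 in granulocytes, and Jun 963, 11.6, 65.1 and 80.1. In granulocytes against GMP 10 of the 19 were at least 2-fold higher and 2 lower, where 11.4% and 18.9% of all genes were. The part of cell handling in the Dusp values was not tested.

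**Figure D2:**
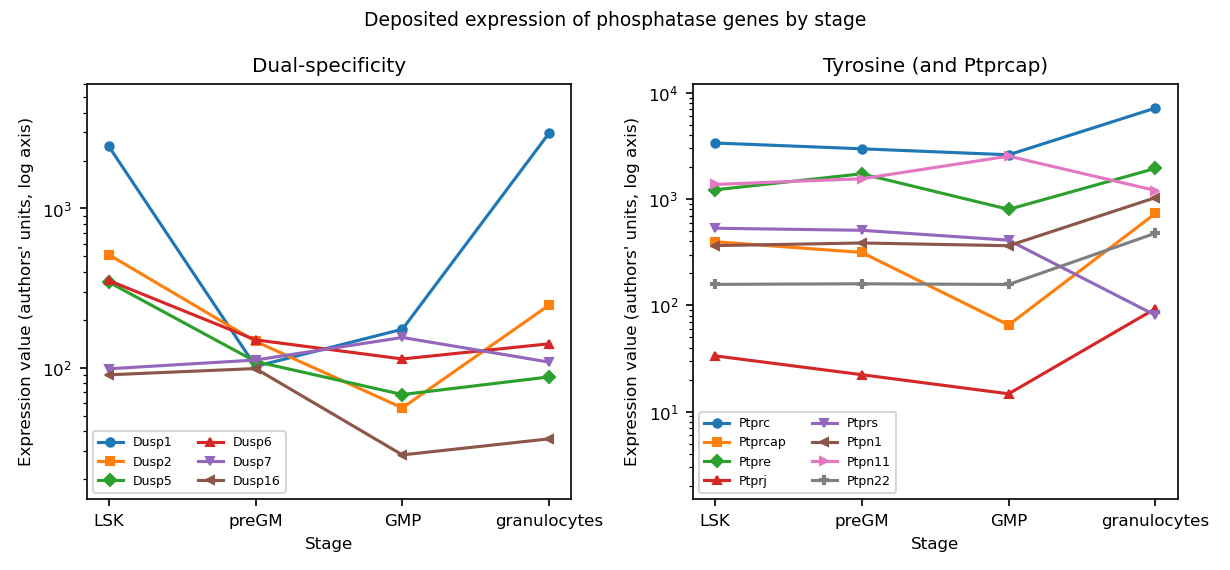
Deposited expression values (log axis, authors' units) at the 4 stages for 6 dual-specificity phosphatases (left) and for 7 tyrosine phosphatases and Ptprcap (right); each point is 1 value with no replicate. Dusp1 goes from 2459 to 102 between LSK and preGM and to 2982 in granulocytes, while Ptprs goes down to 80.6.

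Enhancer marks of these genes showed no difference of that size in the same step. With the pseudocount H3K27ac differed by 2-fold at none of the 42 genes between LSK and preGM, against 0.456% higher and 0.188% lower of all genes. These shares are so low that the count says nothing about the members. Without the pseudocount Ptprf, Ptprm and Dusp12 were 0.244, 0.294 and 0.450 times as high in preGM, and Ptpn5 2.77 times. At Dusp1 it was 2.13 in LSK, 2.63 in preGM, 4.04 in GMP and 7.18 in granulocytes, so that the mark was slightly higher in preGM while expression was far lower. At Dusp5 it was 1.62, 1.43, 1.70 and 2.48, and at Dusp6 0.906, 1.07, 1.48 and 2.35. Dusp5 was thus slightly lower in preGM in the mark as well, at -0.22, with all 7 enhancers below the median of all enhancers. At Dusp2 H3K27ac was at 0.06 in this step and H3K4me1 at -0.21, with 10 of 11 enhancers below that median in H3K4me1. Of the 19 immediate early genes 0 were at least 2-fold different in H3K27ac between LSK and preGM, beside the same low shares of all genes.

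In granulocytes against GMP H3K27ac was at least 2-fold higher at 2 of the 42 genes (4.76%, against 7.81% of all genes) and at least 2-fold lower at 4 (9.52%, against 7.57%). Dusp2 was the lowest. Its H3K27ac was 2.25, 2.59, 3.45 and 0.890 along the stages, a log2 ratio of -1.39 in the last step, in which its expression had a log2 ratio of 1.65. Of its 11 enhancers 10 lay below the median of all enhancers. The 3 at least 2-fold lower are the last neighbours of the cluster. At chr2:127162487-127162740 H3K27ac was 0.677 in granulocytes against 11.5 in GMP, at chr2:127161712-127161748 it was 1.42 against 9.91, and at chr2:127161253-127161482 it was 1.05 against 5.09 (build mm9). The second of these, in the PU.1 class, had H3K4me1 of 10.3 in granulocytes against 2.61 in GMP, so that the marks went opposite ways there. Over the 305 enhancers H3K4me1 was at least 2-fold higher in granulocytes at 14 (4.59%, against 9.69% of all enhancers) and lower at 10 (3.28%, against 2.81%). After the subtraction the balance turned, with 6 higher (1.97%, against 3.43%) and 28 lower (9.18%, against 10.2%), among the latter 6 of Ptprs, 5 of Dusp4 and 4 of Dusp2. Dusp2 was the only member with enhancers of both kinds, 1 higher and 2 lower before the subtraction.

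Dusp1 and Dusp6 had the opposite direction at single enhancers. H3K27ac was at least 2-fold higher in granulocytes at 8 of the 20 Dusp1 enhancers and at 9 of the 27 Dusp6 enhancers, and lower at none. Over the 305 enhancers 37 were at least 2-fold higher (12.1%, against 14.1% of all enhancers) and 14 lower (4.59%, against 6.05%). The higher ones belonged to 9 genes and the lower ones to 9 others. After the subtraction 29 were higher (9.51%, against 10.8%) and 18 lower (5.90%, against 8.24%), and Dusp6 had 4 higher and 1 lower, Dusp1 7 higher and none lower.

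**Figure D3:**
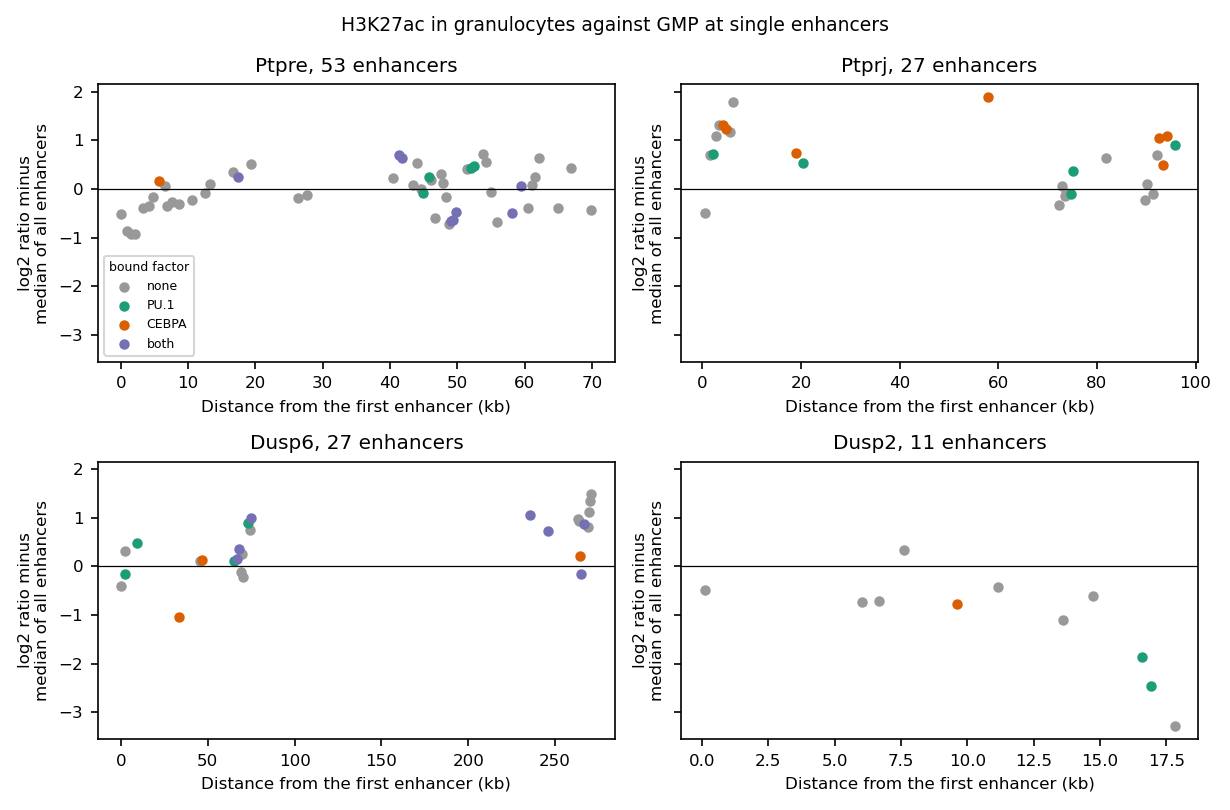
Log2 ratio of H3K27ac in granulocytes against GMP at each enhancer of Ptpre, Ptprj, Dusp6 and Dusp2 (median of all enhancers subtracted), against the distance from the gene's first enhancer in kb; colours give the authors' class of bound factor. Points of Ptpre scatter between -0.93 and 0.72, while 3 Dusp2 enhancers at the right end lie between -3.29 and -1.86.

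Dusp10 and Dusp16 encode phosphatases of JNK and p38. The 1 enhancer of Dusp10 (chr1:185858035-185858336, build mm9) had H3K27ac of 7.36, 13.6, 13.1 and 5.54 along the stages and 15.6 in KO preGM. Its log2 ratio was 0.73 in preGM against LSK and -1.15 in granulocytes against GMP, while H3K4me1 was 3.78 in GMP and 7.54 in granulocytes. Its expression stayed between 24.6 and 31.2, below the pseudocount. Dusp16 expression was 90.4, 98.9, 28.4 and 35.8, a log2 ratio of -1.04 in GMP against preGM, while H3K27ac at its 3 enhancers was 3.97 in preGM and 4.99 in GMP.

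Of the 6 atypical dual-specificity genes, small phosphatases that lack the kinase-binding domain of the MAP kinase phosphatases, Dusp19 stood out. Its expression was 130, 207, 578 and 123, with log2 ratios of 1.31 into GMP and -1.86 into granulocytes. It was the only member at least 2-fold higher in GMP than in preGM (2.38%, against 2.86% of all genes). At its 1 enhancer H3K27ac was highest in GMP as well, at 1.57 against 0.978 in preGM and 0.755 in granulocytes. At the 2 enhancers of Dusp22 H3K27ac was 1.88, 1.55, 1.24 and 0.374, and expression 119, 99.8, 55.4 and 57.6. Dusp3, Dusp12, Dusp13 and Dusp28 did not reach 2-fold in any expression comparison with the pseudocount.

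In expression the transition to granulocytes held the most 2-fold differences, among the 42 genes as over all genes. In granulocytes against GMP expression was at least 2-fold higher at 8 of the 42 genes (19.0%, against 11.4% of all genes) and at least 2-fold lower at 4 (9.52%, against 18.9%). After the subtraction these were 8 and 3, against 12.2% and 17.7% of all genes. Of the 8 higher genes 4 were Ptpr symbols: Ptprcap, Ptprc, Ptprj and Ptpre. The others were Dusp1, Dusp2, Ptpn1 and Ptpn22. By stage 17 of the 42 genes (40.5%) had their highest expression in granulocytes, against 29.8% of all genes, and 6 (14.3%) in GMP, against 28.3%.

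Ptprc had expression of 3376, 2977, 2615 and 7201 along the stages. Its granulocyte value stood above the 3 others, which lay close together, and the log2 ratio was 1.52. H3K27ac at its 14 enhancers was low and went up slightly, with 0.713, 0.902, 1.12 and 1.43. H3K4me1 there was 1.91, 1.71, 2.21 and 5.32, and all 14 enhancers lay above the median of all enhancers in granulocytes against GMP. Of the 14, 12 were in classes of stages that include granulocytes, 11 of them in the granulocyte-only class. Their marks in granulocytes may therefore not be separate from their class. Ptprcap, whose product binds CD45, had expression of 397, 315, 65.3 and 734. It was lowest in GMP, at -1.77 against preGM and 2.95 in granulocytes against GMP, while H3K27ac at its 2 enhancers was 2.30, 2.58 and 2.40 in the same 3 stages.

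Ptpre expression was 1224, 1732, 801 and 1947, a log2 ratio of -1.09 into GMP and 1.31 into granulocytes. With Ptprcap and Dusp16 it made up the 3 members at least 2-fold lower in GMP than in preGM (7.14%, against 2.89% of all genes). Its 53 enhancers did not show these turns. Their mean H3K27ac was 1.18, 1.29, 1.78 and 1.98, and in granulocytes against GMP none of the 53 was at least 2-fold different. In H3K4me1 42 of the 53 lay below the median of all enhancers in that step, with a median of -0.31.

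Ptprj, which encodes CD148, had expression of 33.5, 22.2, 14.7 and 93.2. The stage values lie near the pseudocount, which shrinks the ratio of 6.34 between granulocytes and GMP to a log2 ratio of 1.35. In the second expression set the gene was at 284 in wild type preGM, against 22.2 in the preGM of the stages, so its level depends on the set. H3K27ac at its 27 enhancers was 0.886, 0.797, 1.04 and 2.58. Of these, 10 were at least 2-fold higher in granulocytes and none lower, and the strongest single ratio was at chr2:90382928-90383122 (build mm9), in the CEBPA class, with 6.38 against 1.04.

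Ptprs encodes a receptor-type phosphatase that binds proteoglycans. Its expression was 532, 509, 411 and 80.6, and the granulocyte value stood apart, with a log2 ratio of -1.83. H3K27ac at its 17 enhancers was 0.904, 1.07, 1.09 and 0.625, and H3K4me1 5.22, 4.38, 4.89 and 3.35. In granulocytes against GMP 15 of the 17 lay below the median of all enhancers in H3K27ac and 16 in H3K4me1, and 3 were at least 2-fold lower in H3K27ac. Expression and both marks were lowest in granulocytes. Only 1 of the 17 enhancers was in a class of stages that includes granulocytes. The low marks at the others may therefore not be separate from their class.

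The other receptor-type genes had 1 to 9 enhancers and no 2-fold difference in expression once the pseudocount of 40 was added. Without it Ptprv was 2.36 times as high in GMP as in preGM, and Ptprf was 0.343 times as high. Ptpra had expression of 313, 341, 272 and 497, and Ptprv 69.1, 57.5, 136 and 198. H3K4me1 was at least 2-fold lower in granulocytes than in GMP at Ptprk, with 0.903 against 5.04, and at Ptpn14, with 0.773 against 3.72. These were 2 of 42 genes (4.76%, against 2.09% of all genes), with none higher against 5.32%. After the subtraction Ptpn13 and Ptprm were lower as well, 4 of 42 against 8.05% of all genes, and none was higher against 0.872%. In the earlier steps H3K4me1 differed by 2-fold at no member, against 0.0099% of all genes in each direction in preGM against LSK, and 0.238% higher and 0.0099% lower in GMP against preGM. Ptprk and Ptprm had expression of at most 63.2 at any stage. Ptprf, a receptor of cell contacts, had H3K27ac of 1.11, 0.271, 1.28 and 0.973 at its 2 enhancers, and Ptprn, a vesicle protein of endocrine cells, 2.57 in granulocytes against 0.700 in GMP at its 1 enhancer.

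**Figure D4:**
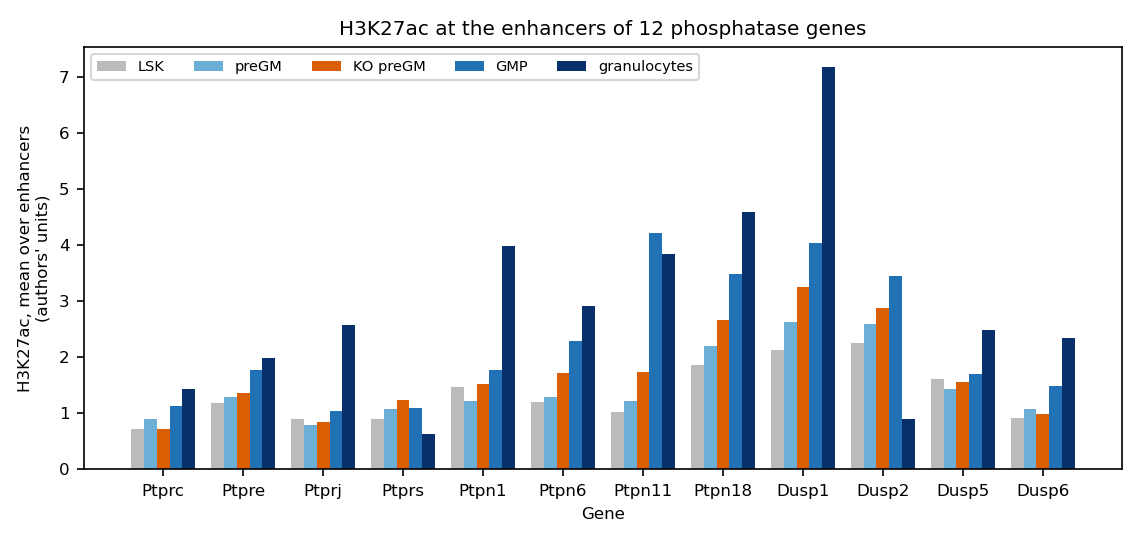
Mean H3K27ac signal (authors' units, linear axis from 0) over the enhancers of 12 phosphatase genes; the 5 bars of a gene are LSK, wild type preGM, KO preGM, GMP and granulocytes, each 1 pooled value. Granulocytes have the highest bar except at Ptprs and Dusp2, where theirs is the lowest, and at Ptpn11, where the GMP bar is highest at 4.22.

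Of the non-receptor genes Ptpn11, which encodes SHP-2, was high in GMP. Its H3K27ac was 1.02, 1.21, 4.22 and 3.85 along the stages. GMP and granulocytes stood above LSK and preGM, with a log2 ratio of 0.94 in GMP against preGM, and 1.36 before the subtraction. It and Ptprf were the 2 of 42 genes at least 2-fold higher (4.76%, against 9.05% of all genes, with none lower against 0.178%), and after the subtraction no member was, against 1.07% higher and 1.69% lower. Each of the 8 Ptpn11 enhancers exceeded the all-enhancer median, and 5 were at least 2-fold higher. Over the 305 enhancers 16 were (5.25%, against 9.21% of all enhancers) and none was lower, against 0.411%. After the subtraction 7 were higher (2.30%, against 2.77%), 5 of them at Ptpn11, and 3 lower (0.984%, against 2.13%). At chr5:121573420-121573537, in the CEBPA class, H3K27ac was 0.869 in preGM and 4.34 in GMP, and at chr5:121574106-121574130, in the class of both factors, 0.848 and 4.09 (build mm9). Expression was 1375, 1556, 2539 and 1206, also highest in GMP, with log2 ratios of 0.68 and -0.98 into and out of that stage. The other members were mostly below the typical gene in this step, 30 of 42 lying below the median of all genes in H3K27ac. Over the 305 single enhancers the median was -0.05.

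Ptpn1 encodes PTP1B, which acts on insulin receptor and JAK kinases. Its expression was 365, 387, 364 and 1033, level until GMP and high in granulocytes, with a log2 ratio of 1.48. H3K27ac at its 21 enhancers was 1.46, 1.22, 1.78 and 3.99, and 5 were at least 2-fold higher in granulocytes. The enhancer at chr2:167751709-167751783 (build mm9), bound by both factors, had 12.9 against 2.69. Ptpn22, which restrains Src and Syk family kinases in lymphocytes, had expression of 158, 160, 157 and 478, a log2 ratio of 1.46. Its H3K27ac was 1.21, 2.24, 2.85 and 2.23 and did not follow.

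Ptpn6, which encodes SHP-1, had expression of 780, 779, 948 and 1372, and H3K27ac of 1.20, 1.28, 2.28 and 2.92. Both were highest in granulocytes, without reaching 2-fold in any step. Ptpn12 and Ptpn18, phosphatases of the PEST group, had expression of 634, 871, 930 and 1464, and 434, 373, 360 and 662, also highest in granulocytes. Ptpn3 went the other way, with 124, 137, 94.7 and 20.2 and a log2 ratio of -1.09 into granulocytes. Ptpn23, an endosomal protein with 1 enhancer (chr9:110310636-110310932, build mm9), had the highest H3K27ac of all members, 21.2 in granulocytes against 8.09 in GMP, while its expression was 71.6 against 106. At Ptpn4 and Ptpn13 H3K27ac was at least 2-fold lower, with 0.653 against 2.01 and 0.618 against 1.99. Just short of the count, through the pseudocount, lay Ptpn1, Ptprj and Ptpn5, at 0.91, 0.90 and 0.90, with plain ratios of 2.25, 2.48 and 2.73.

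The kinases and receptors on the other side of these reactions were taken from lists of the pathway. In granulocytes against GMP 9 of 18 cytoplasmic tyrosine kinase genes were at least 2-fold higher in expression and 1 lower, with a median of 1.02, beside 11.4% and 18.9% of all genes. Among the 9 were Fgr, Syk and Csk, the last being the kinase that puts on the phosphate that CD45 removes. Of 17 MAP kinase genes and activators 7 were higher and 3 lower, with a median of 0.79. Of 12 receptors with inhibitory tyrosine motifs 3 were higher, Pilra, Cd33 and Sirpa, and 2 lower. Of 20 other inhibitors of signalling 4 were higher and 5 lower, and of 15 growth factor and cytokine receptors 2 were higher and 4 lower. Every one of these lists holds few genes, and the counts stand beside those shares as a description. In preGM against LSK 1.61% of all genes were at least 2-fold higher and 0.802% lower. The MAP kinase list had no such gene, which is near those shares, and the inhibitor list of 20 had 2 lower, Socs3 and Spry1.

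PU.1 signal was read at the same enhancers. In preGM against LSK no member was at least 2-fold different, against 2.79% higher and 0% lower of all genes, and in GMP against preGM none was, against 0.317% higher and 0.366% lower. At single enhancers 20 of 305 (6.56%, against 6.56% of all enhancers) were at least 2-fold higher in preGM than in LSK and none lower, against 0.0364%. After the subtraction 1 was higher (0.328%, against 2.20%) and 2 were lower (0.656%, against 0.600%). The largest ratio was at chr10:98893230-98893678 (build mm9), a Dusp6 enhancer of both factors, with 8.64 against 2.06. Dusp5, Ptpn18 and Ptprn had the highest mean PU.1, with 11.9, 9.30 and 11.1 in preGM. In the PU.1 class were 1 of the 7 Dusp5 enhancers, 5 of the 9 of Ptpn18 and the 1 enhancer of Ptprn. In GMP against preGM 33 of 42 genes lay below the median of all genes, with a median of -0.13. Over the 305 single enhancers the median was -0.005, so this shift of the gene means was not seen across the enhancers.

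In KO against wild type preGM no member was at least 2-fold different in H3K27ac, against 0.178% higher and 0.119% lower of all genes, or in expression, against 0.277% and 0.406%, or in H3K4me1, against 0% and 0.0099%. Dusp6 had the lowest expression ratio, with 82.1 in KO and 140 in wild type, a log2 ratio of -0.56. Dusp22 followed with 54.0 and 93.4, and Ptpn12 was highest with 1152 and 882, at 0.37. Dusp1 had 90.5 and 90.3. At Dusp22 H3K27ac was low in the KO as well, with 0.739 against 1.55 in wild type and a log2 ratio of -0.72, the lowest of the members. The highest were Ptprf, with 1.01 in KO against 0.271, and Ptprm, with 1.01 against 0.367, at 0.75 and 0.61. Their plain ratios of 3.73 and 2.75 come from low values and were not counted. In H3K27ac 25 of the 42 genes lay above the median of all genes and 17 below. Of the lists of cell type markers, 6 of 8 monocyte and 6 of 14 granulocyte markers were at least 2-fold lower in this comparison, and the part of that shift in the phosphatase values was not tested.

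PU.1 was at least 2-fold lower in KO preGM at 3 of the 42 genes, Ptpn18, Ptpn23 and Ptprr (7.14%, against 3.39% of all genes), and higher at none, against 0.0396%. After the subtraction no member was, against 0.396% higher and 0.386% lower. Ptpn18 had 9.30 in wild type and 3.89 in KO, and 5 of its 9 enhancers were at least 2-fold lower. Over the 305 enhancers 28 were lower (9.18%, against 6.15% of all enhancers) and 1 higher (0.328%, against 0.0955%), and the 28 belonged to 14 genes. After the subtraction 12 were lower (3.93%, against 1.99%), in 6 genes, and 2 higher (0.656%, against 0.725%). Of the 12, Ptpn18 and Ptprj held 3 each, and Dusp1 and Dusp6 2 each.

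The size went with the class of bound factor, as it did over the whole table. Enhancers with both factors had a median of -0.51 at members and -0.52 over all enhancers, with PU.1 alone -0.45 and -0.37, with CEBPA alone -0.22 and 0.02, and with neither 0.19 and 0.17. Whether these classes were made from the same wild type signal is not given. The member enhancer with the most CEBPA, at 4.12, was chr10:98904102-98904346 of Dusp6 (build mm9), where PU.1 was 6.27 in wild type and 1.23 in KO. Close behind in PU.1 loss were 2 Dusp1 enhancers of both factors, chr17:26635179-26635337 with 16.7 and 4.58, and chr17:26634721-26634821 with 26.9 and 8.58. At the Dusp6 enhancer H3K27ac was 0.400 in wild type and 0.995 in KO, so that the mark was higher where PU.1 was lower. At the first of the Dusp1 enhancers it was 1.45 in wild type and 0.511 in KO, lower together with PU.1. Dusp6 as a whole had 4 of 27 enhancers at least 2-fold lower in PU.1, and 20 of the 27 below the all-enhancer median in H3K27ac.

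Over the 42 genes the H3K27ac and expression ratios were loosely related at most. In granulocytes against GMP Pearson's r across the 42 genes was 0.23 and Spearman's rho 0.30, against 0.46 and 0.43 across all genes, and 26 of 42 genes had both on the same side of the median. In preGM against LSK r was -0.10 against 0.16, with 19 of 42 on the same side, and in GMP against preGM 0.07 against 0.14. In the KO it was 0.45 against 0.13. Over the 16 members with 7 or more enhancers r was -0.17, 0.30 and 0.28 along the stages and 0.09 in the KO. Genes are not independent replicates, and the values of a comparison share their columns, so these are descriptions.

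**Figure D5:**
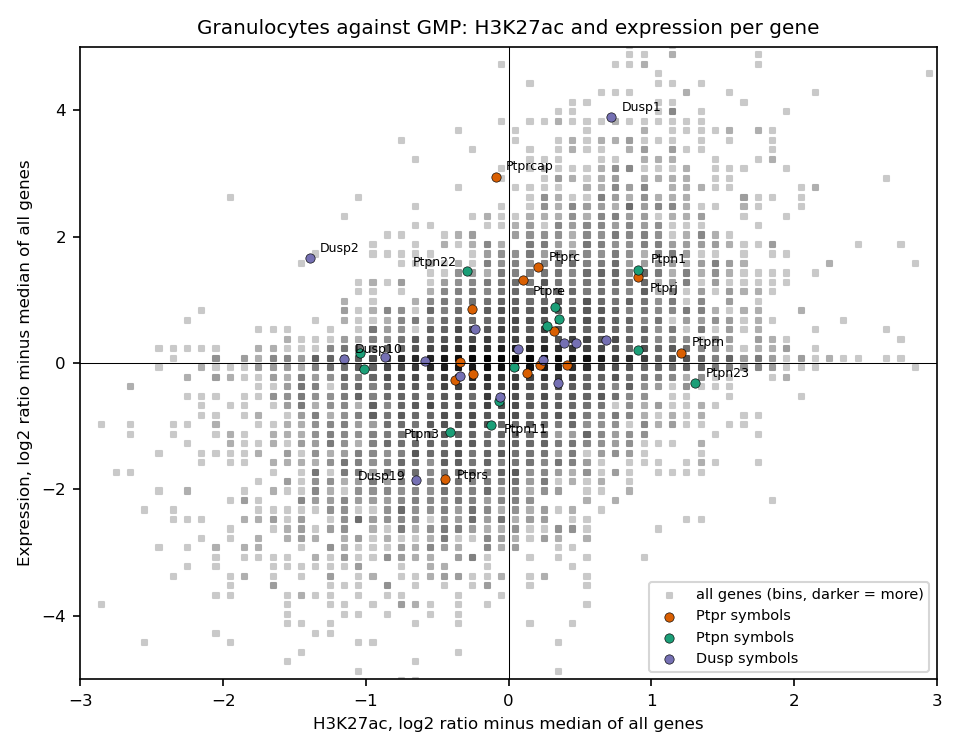
Log2 ratio of expression (vertical) against that of H3K27ac (horizontal) in granulocytes against GMP, the median of all genes subtracted from both; coloured points are the 42 genes by symbol, grey squares bin all genes, and genes beyond the axes are not drawn. Dusp2 lies at the upper left, at -1.39 and 1.65, while Dusp1, Ptpn1 and Ptprj lie at the upper right.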

How the data were processed

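The values come from 1 deposited table of 44002 enhancers in build mm9. Of its columns 15 hold ChIP-seq signal made by the authors, never negative and not whole, and 6 hold expression as a deposited score, 1 linear value per gene with no stated unit. How libraries were pooled or scaled: not given in the sources used here. The submitters' processing notes name Bowtie2, MACS2, bedtools, STAR, featureCounts and DESeq2, with no role. Whether coordinates count from 0 or 1 is not stated, and they are printed as deposited. A further 11 value columns were not used: 6 of a quantity not described and 5 with no listed sample.

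Columns were matched to groups by name. Enhancer signal was averaged per gene, and log2 ratios carried a pseudocount, the 25th percentile of the assay rounded to 1 digit: 0.7 for H3K27ac, 2 for H3K4me1, 0.6 for PU.1 and 40 for expression. Scaling can shift all ratios of a comparison, so the median over 10096 genes was subtracted. The call was 2-fold in size, and the steps were tested on simulated data. Named are 15 listed genes, the members at least 2-fold different (at most 6 per direction), the highest and lowest gene means per assay, the 5 genes with most enhancers, and per comparison the 3 highest and 3 lowest enhancers; a few more were named after their values were seen. The members and lists were chosen with earlier results of these data known, and the immediate early genes after their values were seen. Promoters are from RefSeq (GRCm38.p6). Python 3.11.15, pandas 2.3.3, NumPy 2.4.6 and Matplotlib 3.10.9 were used.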

Additional observations from a re-analysis of the deposited data

How the results depend on the processing

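Counts of genes at least 2-fold different moved under 5 of 6 alternatives. With 0.25 times its size they were 3 in place of 0 for H3K27ac in preGM against LSK, 11 in place of 6 in granulocytes against GMP, 2 in place of 0 in the KO, 5 in place of 2 for H3K4me1 in granulocytes, and 7 in place of 4 for expression in GMP. With 4 times the pseudocount they were 0 for H3K27ac in GMP, 1 in granulocytes, 0 for H3K4me1 in granulocytes, 0 for PU.1 in the KO, 2 for expression in preGM and 2 in GMP. With the median of all genes subtracted they were 0 for H3K27ac in GMP, 4 for H3K4me1 in granulocytes and 0 for PU.1 in the KO. Among genes at or above the median level they were 1 for H3K27ac in GMP, 3 in granulocytes and 1 for H3K4me1 in granulocytes. With the strongest enhancer per gene they were 1 for H3K27ac in GMP, 11 in granulocytes, 1 for PU.1 in preGM and 9 in the KO. The median of the enhancers' ratios moved none of 11 counts. Of 33 single values at least 2-fold different, 33 stayed so with 0.25 times the pseudocount, 13 with 4 times and 27 after the subtraction, and none changed sign. Apart from the shift by construction of the pseudocount, the cause was not tested. Leaving out a replicate was not possible, since each value is pooled. No paired analysis was possible because the table holds 1 pooled value per group. Depth is unknown and limits every value.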
